A study of Mus musculus with 6 samples.

Results

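Serine synthesis and one-carbon genes were examined in brown adipose tissue of mice with a deletion of the seipin gene aimed at brown adipocytes. The rule named 10 enzyme genes, and 8 of them are listed among the 12966 gene symbols of the expression table, namely Phgdh, Psat1, Psph, Shmt1, Shmt2, Mthfd1, Mthfd2 and Asns. Mthfd1l and Aldh1l2 are not listed, so they were not analysed here. Members were chosen by symbol and by having a listed FPKM value, from a set drawn up with earlier differences between BKO and Ctrl in these libraries known. The differences are therefore descriptions of these libraries, and their p-values, taken over the whole table, are no independent support.

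RNA was sequenced from male C57BL/6J mice that were 10 weeks old. The BKO group (3 libraries) carried the alleles Bscl2f/f Ucp1Cre, and the Ctrl group (3 libraries) carried Bscl2f/f alone. Both groups therefore had floxed Bscl2, the gene of seipin, an endoplasmic reticulum protein of lipid droplet formation, and only BKO mice carried the recombinase. The Ucp1 promoter drives Cre in brown adipocytes, so other cells of the tissue should keep the gene. Since Ctrl mice lacked the transgene, its own effects and those of the deletion cannot be told apart. Values are FPKM, a level per length of transcript that also allows for library size, so genes can be compared with each other. Where 3 values of a group are given, they are those of replicates 1, 2 and 3 in that order. The labels do not say that each library came from its own animal, so p-values measure the spread between these libraries, which may be technical.

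Serine can be made from the glycolytic intermediate phosphoglycerate in a chain of reactions catalysed by PHGDH, PSAT1 and PSPH. Serine hydroxymethyltransferases then pass a carbon unit from serine to tetrahydrofolate, leaving glycine, with SHMT2 in mitochondria and SHMT1 in the cytosol. MTHFD2 in mitochondria and MTHFD1 in the cytosol interconvert the carbon-carrying folates that feed purine, thymidylate and methionine synthesis. ASNS, which makes asparagine from aspartate and glutamine, is not a one-carbon enzyme, but in cultured cells it belongs with several of these genes to the targets of the stress-induced transcription factor ATF4.

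The targeted gene checked the labels, since Bscl2 fell to 17.4 ± 1.32 FPKM in BKO, against 109 ± 6.05 FPKM in Ctrl (SD, n = 3 each, as for all means below; limma adjusted p = 3.95e-05). Brown adipocyte markers were all listed, and the 12 of them summed to between 20790 and 23120 FPKM in BKO and between 20240 and 21120 FPKM in Ctrl. Fabp4 was the largest part, at 11400 ± 947 FPKM in BKO and 10920 ± 413 FPKM in Ctrl. None of the 12 passed the test (limma). Cox7a1 (mean 1484 in BKO, 1202 in Ctrl) and Cox8b (3442, 3044) separated higher, and Cidea (1316, 1532) lower. Over all tested genes, 9.06% separated higher and 6.82% lower. BKO-3 stands apart in the table, with a sum of 2808874 FPKM over all genes, against 1119228 to 1617963 FPKM in the other libraries. It also holds 0 values between 0 and 0.486 FPKM, where the others hold 341 to 632, so a gene below that level in BKO-3 may be missing from the listing. All 8 listed members reached the limit for testing, a mean of 1 FPKM across libraries. Mthfd2 passed it through BKO alone, since its Ctrl mean was 0.821 FPKM.

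The 4 promoters below belong to the 3 genes whose levels separated upwards in BKO and to Asns, whose level did not. They are shown because these genes are often treated as 1 ATF4-responsive group, while here the levels of Asns overlapped between the groups and those of the other 3 did not. Each runs 5′ to 3′ over the 250 bases before an annotated start of the gene, from RefSeq on build GRCm38.p6, and all lie on the minus strand. The start used for Mthfd2 is not its outermost one. Psat1 has another promoter entry, chr19:15924623-15924872, which is not shown. That build is newer than the one used for the expression values. Capitals mark CCAAT on either strand (ATTGG when read from the other strand), the letters of the CCAAT box, and TGATGNAA on either strand, the core of the composite C/EBP-ATF element.
Phgdh, chr3:98339970-98340219: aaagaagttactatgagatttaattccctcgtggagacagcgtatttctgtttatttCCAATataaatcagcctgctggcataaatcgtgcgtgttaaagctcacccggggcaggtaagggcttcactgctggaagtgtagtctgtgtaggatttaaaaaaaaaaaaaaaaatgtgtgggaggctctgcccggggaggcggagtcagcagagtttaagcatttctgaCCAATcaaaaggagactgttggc
Psat1, chr19:15925060-15925309: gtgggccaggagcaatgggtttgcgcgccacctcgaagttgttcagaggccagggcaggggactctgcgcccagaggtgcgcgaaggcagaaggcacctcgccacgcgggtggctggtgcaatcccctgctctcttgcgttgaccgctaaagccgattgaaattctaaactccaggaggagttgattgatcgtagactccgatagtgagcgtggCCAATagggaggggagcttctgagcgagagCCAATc
Mthfd2, chr6:83317605-83317854: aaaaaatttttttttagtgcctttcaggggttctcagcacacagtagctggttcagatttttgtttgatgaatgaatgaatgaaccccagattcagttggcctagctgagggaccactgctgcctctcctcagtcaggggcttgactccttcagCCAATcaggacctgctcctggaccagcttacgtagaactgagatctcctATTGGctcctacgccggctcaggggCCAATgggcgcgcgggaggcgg
Asns, chr6:7693210-7693459: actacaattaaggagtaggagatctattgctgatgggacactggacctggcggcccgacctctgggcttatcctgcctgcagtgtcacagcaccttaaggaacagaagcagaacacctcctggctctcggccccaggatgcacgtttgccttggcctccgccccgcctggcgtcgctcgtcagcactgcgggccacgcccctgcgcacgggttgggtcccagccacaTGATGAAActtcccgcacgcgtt

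The promoter table had entries for 9 of the 10 enzymes, with 10 promoters in all. TGATGNAA occurred in 1 of these 10, that of Asns, as TGATGAAA beginning at position -23 from the start, and in 3.45% of all 32851 promoters of the table. CCAAT occurred in 6 of the 10 and in 33.8% of all promoters. Phgdh held it at -193 and -23, Psat1 at -36 and -6, and Mthfd2 at -96, -47 and -22. The Psat1 positions are those of the promoter shown, and its other promoter held 0 matches of CCAAT and of TGATGNAA. The E-box CACGTG occurred in 0 of the 10 and in 6.02% of all promoters. No match of CCAAT overlapped one of TGATGNAA, and a match only describes the letters of this window.

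Within the serine synthesis chain, 1 of the 3 genes passed the test, where 0.158% of all tested genes were called higher. Differences between the 3 were not tested. Phgdh, whose product makes the entry step, rose in BKO. Psat1, the transaminase of the middle step, separated the groups but did not pass the test. Psph, the phosphatase of the last step, overlapped between the groups.

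Phgdh stood at 6.998, 6.54 and 5.40 FPKM in the BKO libraries, and at 2.96, 2.50 and 2.03 FPKM in the Ctrl libraries. Every BKO library lay above every Ctrl library, and the lowest BKO value was 5.40 against a highest Ctrl value of 2.96 FPKM. The means were 6.31 ± 0.825 FPKM in BKO and 2.50 ± 0.466 FPKM in Ctrl (SD, n = 3 each), a ratio of 2.53. The difference was 1.07 on the log2(FPKM + 1) scale (SE 0.132, 95% interval 0.76 to 1.38, limma with Benjamini-Hochberg adjusted p = 0.0439 over 11397 genes). Only 0.158% of tested genes were called higher and 0.00877% lower at an adjusted p below 0.05, and Phgdh was 16th in the order of p.

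The call of Phgdh was close to the threshold and did not hold with most single libraries left out, while its size changed little. Its difference was 0.999 without BKO-1 (adjusted p = 0.188, limma), 1.04 without BKO-2 (0.177), 1.16 without BKO-3 (0.0344), 1.16 without Ctrl-1 (0.0515), 1.07 without Ctrl-2 (0.219) and 0.97 without Ctrl-3 (0.114). With no filter on low values the adjusted p was 0.0508, and with a skeletal muscle score as covariate it was 0.0598 (limma). Reads of this gene are also uncertain, because 17 processed pseudogenes match 478 to 1621 bases of its transcript at 90.4% to 98.7% identity in GENCODE vM21. None of these pseudogenes is listed in the table, and how reads matching several places were counted is not given in the sources used here.

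Psat1 stood at 2.85, 2.48 and 2.21 FPKM in the BKO libraries, and at 1.88, 1.03 and 0.959 FPKM in the Ctrl libraries. The groups did not overlap, but Ctrl-1 lay nearer to BKO-3 than to the other Ctrl libraries. The ratio of means was 1.95 and the difference 0.64 on the log2(FPKM + 1) scale (95% interval 0.25 to 1.02, limma adjusted p = 0.274). Without Ctrl-1 the difference was 0.81 (adjusted p = 0.11). For Psat1, 1 annotated processed pseudogene shares 91.0% identity over 1056 bases.

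Psph stood at 18.5, 14.99 and 12.7 FPKM in the BKO libraries, and at 16.1, 14.2 and 13.4 FPKM in the Ctrl libraries. BKO libraries held both the highest and the lowest value. The difference was 0.06 on the log2(FPKM + 1) scale (95% interval -0.26 to 0.38, limma adjusted p = 0.921). In GENCODE vM21, 10.4% of the exon bases of Psph lie under exons of Cct6a on the opposite strand, so reads there could belong to either gene. Such overlaps were smaller for Shmt1 (4.74%, with Smcr8), Shmt2 (1.03%, with Ndufa4l2) and Mthfd1 (0.833%, with Gm47525).

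**Figure D1:**
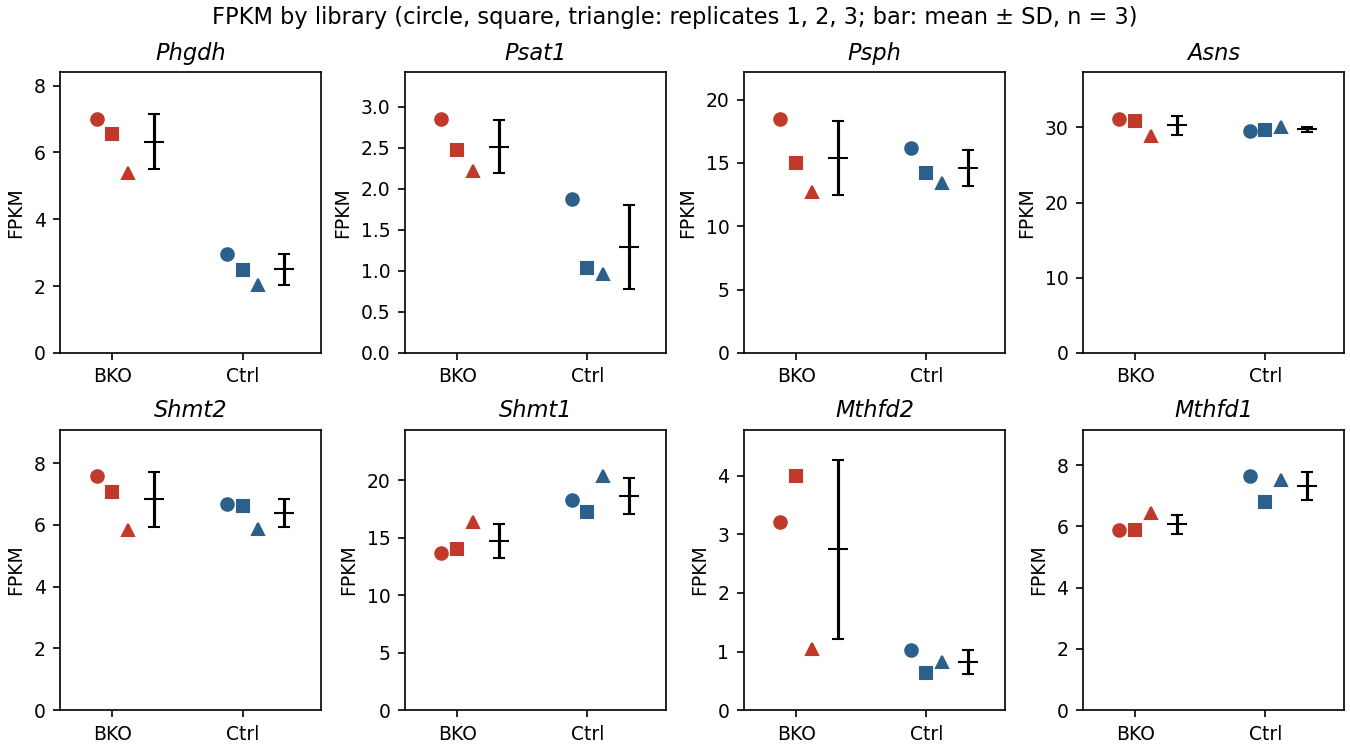
FPKM of the 8 listed enzyme genes by library, 1 panel a gene, with BKO left of Ctrl, each axis starting at 0. Circles, squares and triangles are replicates 1, 2 and 3 and bars are mean ± SD (n = 3). Phgdh, Psat1 and Mthfd2 lie higher in every BKO library, Shmt1 and Mthfd1 lower, and BKO-3 has 1.04 FPKM of Mthfd2, near the 1.02 FPKM of Ctrl-1.

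Neither serine hydroxymethyltransferase passed the test. The groups separated with BKO lower in 1 of the 2, against 6.82% of all tested genes. Shmt1, the cytosolic enzyme, stood at 13.6, 14.0 and 16.4 FPKM in the BKO libraries, and at 18.3, 17.3 and 20.3 FPKM in the Ctrl libraries. Every BKO value was below every Ctrl value, and the BKO mean was 78.8% of the Ctrl mean. The difference of -0.33 on the log2(FPKM + 1) scale did not pass the test (95% interval -0.55 to -0.10, limma adjusted p = 0.337).

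Shmt2, the mitochondrial enzyme, stood at 7.57, 7.06 and 5.85 FPKM in the BKO libraries, and at 6.66, 6.61 and 5.85 FPKM in the Ctrl libraries. The groups overlapped, with BKO-3 level with Ctrl-3. The difference was 0.08 on the log2(FPKM + 1) scale (95% interval -0.17 to 0.33, limma adjusted p = 0.848).

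The ratio of Shmt2 to Shmt1 within a library was 0.556, 0.503 and 0.357 in the BKO libraries, and 0.364, 0.383 and 0.288 in the Ctrl libraries. BKO-3 fell inside the Ctrl range. The mean log2 ratio was 0.44 higher in BKO, with an exact two-sided permutation p of 0.3 (n = 3 each; 0.3 adjusted over the 2 ratios tested).

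Of the genes that interconvert folate-bound carbon, Mthfd2 gave the largest ratio of means of the 8 listed members and their highest coefficient of variation in BKO. MTHFD2 is the mitochondrial dehydrogenase and cyclohydrolase that is low in most adult tissues and high in dividing cells. It stood at 3.21, 3.99 and 1.04 FPKM in the BKO libraries, and at 1.02, 0.625 and 0.817 FPKM in the Ctrl libraries. BKO-1 and BKO-2 lay far above the Ctrl libraries, while BKO-3 was barely above Ctrl-1. The ratio of means was 3.34, and the coefficient of variation was 55.6% in BKO and 24.1% in Ctrl, where that of Psat1 was 39.7%.

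The difference of Mthfd2 was 0.95 on the log2(FPKM + 1) scale and did not pass the test (95% interval 0.22 to 1.68, limma adjusted p = 0.387). Without BKO-3 it was 1.34 and passed (adjusted p = 0.0286, limma, with 2 BKO libraries). BKO-3 was the lowest BKO library for Mthfd2, which reached the limit for testing through BKO alone, so this pass is a description. Without any other single library the difference ranged from 0.69 to 1.03 and did not pass.

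Mthfd1, the cytosolic counterpart that joins several activities in 1 protein, stood at 5.87, 5.89 and 6.43 FPKM in the BKO libraries, and at 7.64, 6.80 and 7.505 FPKM in the Ctrl libraries. The groups did not overlap, and the BKO mean was 82.9% of the Ctrl mean. The difference was -0.23 on the log2(FPKM + 1) scale (95% interval -0.42 to -0.04, limma adjusted p = 0.412).

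The ratio of Mthfd2 to Mthfd1 was 0.546, 0.677 and 0.162 in the BKO libraries, and 0.134, 0.0920 and 0.109 in the Ctrl libraries. All 3 BKO libraries were above all 3 Ctrl libraries. The mean log2 ratio was 1.83 higher in BKO, 3.55-fold, with an exact two-sided permutation p of 0.1, the smallest that 3 against 3 libraries allow (0.2 adjusted over the 2 ratios). Without BKO-3 the difference was 2.46.

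**Figure D2:**
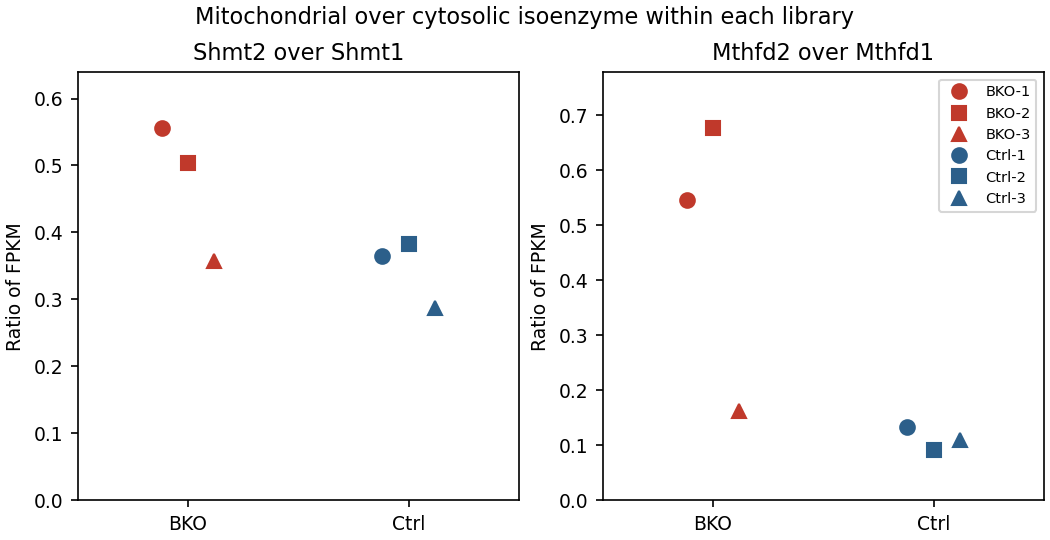
Ratio of FPKM of the mitochondrial to the cytosolic enzyme within each library, Shmt2 over Shmt1 on the left and Mthfd2 over Mthfd1 on the right, with BKO left of Ctrl. Each symbol is 1 library. BKO-3 has the lowest BKO ratio in both panels, 0.357 and 0.162.

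Asns was the most abundant of the enzymes and the most even. It stood at 31.1, 30.9 and 28.8 FPKM in the BKO libraries, and at 29.5, 29.6 and 30.1 FPKM in the Ctrl libraries. The Ctrl values lay inside the range of the BKO values. The difference was 0.02 on the log2(FPKM + 1) scale (95% interval -0.12 to 0.17, limma adjusted p = 0.933). This interval ends below those of Phgdh, Psat1 and Mthfd2, which start at 0.76, 0.25 and 0.22. The intervals of the other listed members overlap it. Differences between these genes were not tested. The coefficient of variation of Asns was 4.16% in BKO and 0.987% in Ctrl, and 1.22% of tested genes varied less than this in Ctrl.

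Over the 8 listed members, 1 was called higher and 0 lower over all genes tested (limma). At an unadjusted p below 0.05, 3 were higher and 2 lower, where 6.63% and 3.52% of all tested genes were. The groups did not overlap in 3 higher members (Phgdh, Psat1 and Mthfd2) and 2 lower ones (Shmt1 and Mthfd1), against 9.06% and 6.82% of tested genes. The median difference of the members was 0.07 on the log2(FPKM + 1) scale, and that of all genes tested was 0.006. These shares describe a set chosen with such values in view and support nothing further.

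**Figure D3:**
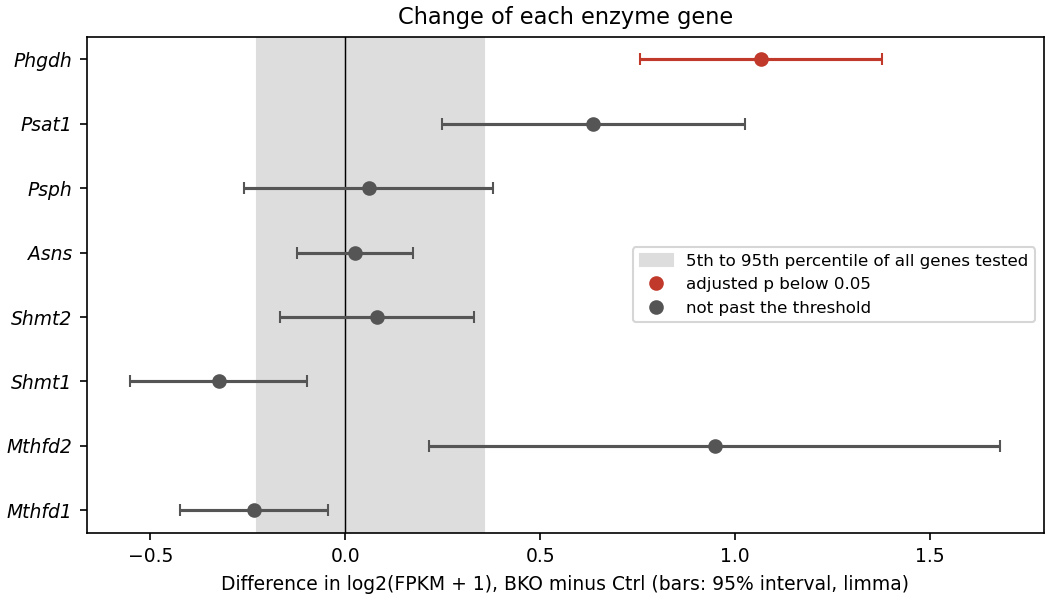
Difference in log2(FPKM + 1), BKO minus Ctrl, of the 8 listed enzyme genes, with 95% intervals from limma. The grey band runs from -0.227 to 0.356, the 5th to the 95th percentile of all genes tested. Red marks an adjusted p below 0.05, which Phgdh alone of the 8 reached.

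The order of the mean levels was not the same in the groups. In BKO it was Asns at 30.3 FPKM, Psph at 15.4, Shmt1 at 14.7, Shmt2 at 6.83, Phgdh at 6.31, Mthfd1 at 6.07, Mthfd2 at 2.75 and Psat1 at 2.51 FPKM. Values of Psph and Shmt1 overlapped across the BKO libraries, as did those of Shmt2, Phgdh and Mthfd1, and those of Mthfd2 and Psat1. In Ctrl the order was Asns at 29.7 FPKM, Shmt1 at 18.6, Psph at 14.6, Mthfd1 at 7.31, Shmt2 at 6.37, Phgdh at 2.50, Psat1 at 1.29 and Mthfd2 at 0.821 FPKM. There only the values of Psat1 and Mthfd2 overlapped between neighbours. Asns had a higher mean over the 6 libraries than 83.2% of tested genes, Phgdh than 34.1%, Psat1 than 12.6% and Mthfd2 than 11.3%.

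Profiles over the 6 libraries were compared by the root mean square difference between log2(FPKM + 1) values centred on each gene's mean. These values keep the difference between BKO and Ctrl, so near genes share its size and direction by construction. Nearest to Phgdh were Cd84, a receptor of leukocytes (0.0574), Slc11a1, a metal transporter of phagosomes (0.0783), and Tyrobp, an adaptor of myeloid cells (0.111). Nearest to Psat1 were Slamf9, Csf2ra, a subunit of the GM-CSF receptor, and Cd48, a leukocyte surface protein, at 0.0604 to 0.0718. Cd84, Slamf9 and Cd48 reached the limit for testing through BKO alone, with Ctrl means of 0.332, 0.619 and 0.856 FPKM. Cd84 averaged 1.68 FPKM in BKO. The scale understates changes of such low genes, so near profiles need not have like ratios of FPKM. Csf2ra stood at 3.46, 3.21 and 2.41 FPKM in the BKO libraries, and at 2.37, 1.41 and 1.21 FPKM in the Ctrl libraries. Both genes had their highest Ctrl value in Ctrl-1, which follows from choosing Csf2ra for its closeness to Psat1. Ctrl-1 was also the highest Ctrl library in 6 of the 8 listed members.

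Nearest to Mthfd2, at larger distances of 0.132 to 0.2, were Gm14567, Manf, a secreted protein of the endoplasmic reticulum stress response, and Cd47. Manf stood at 37.4, 40.1 and 21.9 FPKM in the BKO libraries, and at 17.8, 15.996 and 20.01 FPKM in the Ctrl libraries. Like Mthfd2, for closeness to which it was chosen, it was high in BKO-1 and BKO-2 and near the Ctrl values in BKO-3. The other members had nearer neighbours: Vti1b for Shmt2 (0.0177), Dnajc9 for Psph (0.0343), Nrip1 for Shmt1 (0.0381), Mpzl2 for Mthfd1 (0.0181) and Dlst, a subunit of the oxoglutarate dehydrogenase complex, for Asns (0.0143).

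**Figure D4:**
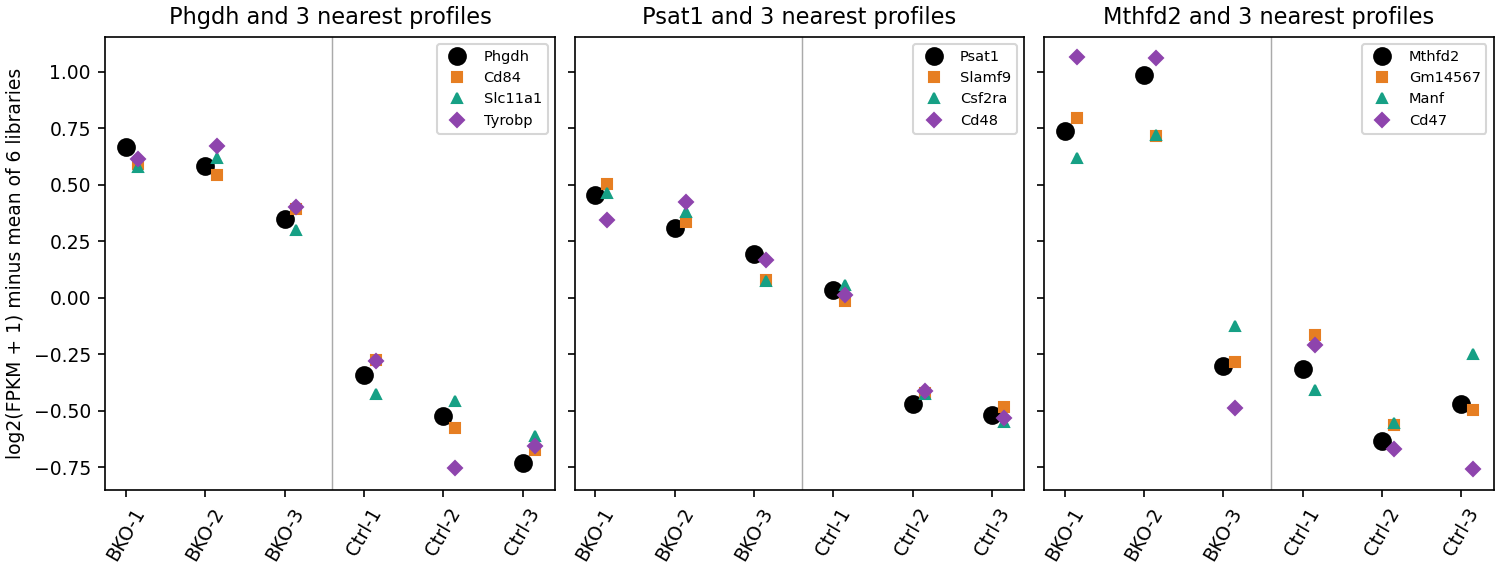
Centred log2(FPKM + 1) values in the 6 libraries for Phgdh, Psat1 and Mthfd2 (black circles) and, in each panel, the 3 tested genes with the smallest root mean square difference from it (coloured symbols, drawn slightly to the right). BKO libraries are left of the line and Ctrl libraries right of it. Mthfd2 and its neighbours are high in BKO-1 and BKO-2 only, whereas Phgdh and Psat1 lie above their own mean in all 3 BKO libraries.

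Summed macrophage markers were higher in BKO alongside Phgdh and Psat1. Of 22 markers 21 were listed, none at 0 in any library, and their summed level was 202 to 253 FPKM in BKO and 73.1 to 117 FPKM in Ctrl, with the highest Ctrl sum in Ctrl-1. Of 18 tested, 5 rose in BKO (Lyz2, Ctss, Gpnmb, Ms4a7 and Tyrobp, limma), where 0.158% of all tested genes were called higher. Gpnmb and Ms4a7 reached the limit for testing through BKO alone, with Ctrl means of 0.255 and 0.573 FPKM, so their calls and the median of 0.91 over the tested markers are descriptions. Lyz2, a lysozyme of macrophages, averaged 84.2 ± 10.5 FPKM in BKO and 23.8 ± 6.20 FPKM in Ctrl, and Emr1, which encodes F4/80, a macrophage surface protein, 2.25 ± 0.214 FPKM in BKO and 1.101 ± 0.300 FPKM in Ctrl. The part of these cells in the levels of Phgdh and Psat1 was not tested, and in a bulk sample more cells of a type and more RNA per cell cannot be told apart.

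Preadipocyte and fibroblast markers also lay higher in BKO in most cases, without a call. All 11 were listed and tested, and 10 of the 11 had a positive difference, with a median of 0.38. Over all 11397 tested genes, 5876 had a positive difference, with a median of 0.006. At an unadjusted p below 0.05, 3 were higher (Gsn, Lum and Pdgfra) and 0 lower (limma), where 6.63% and 3.52% of all tested genes were. Lum, a matrix proteoglycan, stood at 18.5, 14.7 and 14.2 FPKM in the BKO libraries, and at 10.2, 10.7 and 8.33 FPKM in the Ctrl libraries. Pdgfra, a growth factor receptor of fibroblast precursors, stood at 2.88, 1.88 and 2.32 FPKM in the BKO libraries, and at 1.61, 1.29 and 1.05 FPKM in the Ctrl libraries. Lum and Pdgfra separated the groups, as 9.06% of tested genes did with BKO higher. Values overlapped in the sum of the list, 464 to 550 FPKM in BKO and 354 to 468 FPKM in Ctrl, and the part of these cells in the enzyme levels was not tested.

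Markers of dividing cells were mostly too low to test. Of 14, 10 were listed, without Mki67 and Cdk1, and 3 were tested, none past the threshold (limma, 0 at an unadjusted p below 0.05). Their sum of 33.6 to 34.2 FPKM in BKO and 29.7 to 34.4 FPKM in Ctrl was mostly Pcna, a replication clamp, at 25.1 ± 0.925 FPKM in BKO and 24.45 ± 1.12 FPKM in Ctrl. The tested Mcm6 and Tk1 had ratios of means of 1.09 and 1.03, with overlap. Among the untested low markers, Ccna2, Mcm2 and Mcm5 lay higher in BKO without overlap, with ratios of 1.31, 1.49 and 1.58. Over all tested genes, 9.06% lay higher without overlap, a share that does not cover genes this low. Genes below 0.486 FPKM in BKO-3 may be missing from the listing. Low genes that are listed may thus lie higher in BKO for that reason, and these separations are only descriptions. Birc5, Rrm2, Top2a and Mcm3 had ratios of 1.66, 1.69, 1.36 and 1.003 with overlap. The part of dividing cells in the enzyme levels was not tested either. Skeletal muscle markers summed to 208 to 517 FPKM in BKO and 161 to 741 FPKM in Ctrl, and overlapped.

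The rest of the folate and methionine pathways was called in neither direction. None of 13 tested genes on a list of 16 other folate genes passed (limma), with 2 higher and 0 lower at an unadjusted p below 0.05, against 6.63% and 3.52% of all tested genes, and a median difference of -0.01. Tyms, thymidylate synthase, stood at 3.14 ± 0.718 FPKM in BKO and 2.07 ± 0.329 FPKM in Ctrl, and Aldh1l1, the cytosolic formyltetrahydrofolate dehydrogenase, at 19.9 ± 1.33 FPKM in BKO and 16.6 ± 1.43 FPKM in Ctrl. Neither of these overlapped between the groups. An overlap was seen in Mthfs, which returns formyltetrahydrofolate to the cycle, at 4.72 ± 0.338 FPKM in BKO and 3.71 ± 0.855 FPKM in Ctrl, and in Slc25a32, the mitochondrial folate carrier, at 11.7 ± 1.63 FPKM in BKO and 13.5 ± 2.21 FPKM in Ctrl.

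The glycine cleavage system, which releases carbon units from glycine in mitochondria, had 3 of 4 genes listed and none called (limma, 0 at an unadjusted p below 0.05). All 3 overlapped between the groups. Amt, the aminomethyltransferase, stood at 1.56 ± 0.582 FPKM in BKO and 1.86 ± 0.271 FPKM in Ctrl. Dld, a subunit shared with the oxoacid dehydrogenases, stood at 384 ± 6.56 FPKM in BKO and 410.4 ± 19.6 FPKM in Ctrl, and Gcsh at 87.2 ± 2.87 FPKM in BKO and 87.3 ± 5.03 FPKM in Ctrl.

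Of 15 tested methionine cycle and transsulfuration genes, from a list of 20, none passed (limma), with a median of 0.005. There were 1 higher and 1 lower at an unadjusted p below 0.05, against 6.63% and 3.52% of all tested genes. Nnmt, which methylates nicotinamide with S-adenosylmethionine, stood at 60.4, 69.7 and 70.3 FPKM in the BKO libraries, and at 23.7, 20.1 and 49.8 FPKM in the Ctrl libraries. The groups did not overlap, with Ctrl-3 nearest to BKO (difference 1.18, limma adjusted p = 0.267). Ahcyl1, a relative of adenosylhomocysteinase, stood at 192 ± 2.32 FPKM in BKO and 230.0 ± 1.84 FPKM in Ctrl, also without overlap (difference -0.26, limma adjusted p = 0.221). Gnmt, glycine methyltransferase, at 3.51 ± 2.204 FPKM in BKO and 2.41 ± 0.719 FPKM in Ctrl, and Mat2a, which makes S-adenosylmethionine, at 84.1 ± 15.6 FPKM in BKO and 83.05 ± 8.06 FPKM in Ctrl, overlapped.

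Of 19 purine and pyrimidine synthesis genes none passed (limma), with a median of -0.02. An unadjusted p below 0.05 was reached by 3 higher and 1 lower, against 6.63% and 3.52% of all tested genes. The 3 higher were Prps1, Cad and Ctps. Prps1, which makes phosphoribosyl pyrophosphate, stood at 18.8 ± 2.23 FPKM in BKO and 14.7 ± 1.06 FPKM in Ctrl, and Cad, the entry enzyme of pyrimidine synthesis, at 20.3 ± 2.57 FPKM in BKO and 16.05 ± 1.32 FPKM in Ctrl. Ctps, CTP synthase, stood at 2.55 ± 0.356 FPKM in BKO and 1.93 ± 0.201 FPKM in Ctrl. The most abundant genes of this list overlapped between the groups, Impdh1, of guanine nucleotide synthesis, at 108.6 ± 20.1 FPKM in BKO and 119 ± 37.1 FPKM in Ctrl, and Paics, of purine ring synthesis, at 60.4 ± 4.20 FPKM in BKO and 63.4 ± 2.44 FPKM in Ctrl.

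Of 9 tested serine-consuming or serine-incorporating genes, from a list of 12, none passed (limma), with a median of -0.02. There were 1 higher and 3 lower at an unadjusted p below 0.05, against 6.63% and 3.52% of all tested genes. The higher one was Sdsl, a relative of serine dehydratase, at 11.4 ± 1.19 FPKM in BKO and 9.64 ± 0.238 FPKM in Ctrl. Srr, serine racemase, lay the other way at 18.5 ± 0.965 FPKM in BKO and 21.5 ± 1.51 FPKM in Ctrl, as did Sptlc1, a subunit of serine palmitoyltransferase, at 12.9 ± 0.450 FPKM in BKO and 14.99 ± 1.26 FPKM in Ctrl. The other lower gene was Ptdss2, at 26.2 ± 1.85 FPKM in BKO and 29.95 ± 1.03 FPKM in Ctrl. These genes separated the groups, as did Ptdss1, at 12.6 ± 0.562 FPKM in BKO and 13.9 ± 0.691 FPKM in Ctrl. In this list 1 gene thus separated higher and 4 lower, against 9.06% and 6.82% of tested genes. Values overlapped in the abundant Serinc3, at 132 ± 13.5 FPKM in BKO and 129 ± 5.67 FPKM in Ctrl, and Serinc1, at 104 ± 4.32 FPKM in BKO and 106 ± 4.57 FPKM in Ctrl.

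Of 14 other amino acid synthesis genes none passed (limma), with a median of 0.10. An unadjusted p below 0.05 was reached by 2 higher and 1 lower, against 6.63% and 3.52% of all tested genes. Got1, the cytosolic aspartate aminotransferase, had the largest difference, 0.53, with overlapping groups at 12.9 ± 2.88 FPKM in BKO and 8.91 ± 3.73 FPKM in Ctrl. Asl, argininosuccinate lyase, at 7.70 ± 0.293 FPKM in BKO and 5.70 ± 0.571 FPKM in Ctrl, and Gpt, alanine aminotransferase, at 28.7 ± 0.909 FPKM in BKO and 37.6 ± 4.74 FPKM in Ctrl, did not overlap. Glul, glutamine synthetase, at 875 ± 97.9 FPKM in BKO and 940.1 ± 123 FPKM in Ctrl, and Glud1, glutamate dehydrogenase, at 87.9 ± 13.5 FPKM in BKO and 84.3 ± 5.41 FPKM in Ctrl, overlapped.

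Of 16 tested amino acid transporters, from a list of 23, none passed (limma), with a median of 0.11. An unadjusted p below 0.05 was reached by 3 higher and 0 lower, against 6.63% and 3.52% of all tested genes. Slc7a8, a subunit of a system L carrier, stood at 5.53 ± 2.54 FPKM in BKO and 2.22 ± 1.04 FPKM in Ctrl, Slc43a2, another carrier of large neutral amino acids, at 8.46 ± 0.398 FPKM in BKO and 6.72 ± 0.619 FPKM in Ctrl, and Slc1a5, a carrier of neutral amino acids including serine, at 260 ± 15.98 FPKM in BKO and 216 ± 30.2 FPKM in Ctrl. All 3 separated the groups. Of the 16, 4 did so with BKO higher and 0 with BKO lower, against 9.06% and 6.82% of tested genes. Values overlapped in Slc3a2, the heavy chain of system L, at 39.2 ± 5.96 FPKM in BKO and 28.97 ± 10.2 FPKM in Ctrl, and in Sfxn1, the mitochondrial serine carrier, at 59.6 ± 4.55 FPKM in BKO and 52.9 ± 3.38 FPKM in Ctrl.

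Regulators around ATF4 had a median difference of 0.34 over 19 tested genes, with none past the test (limma). At an unadjusted p below 0.05, 7 were higher and 1 lower, where 6.63% and 3.52% of all tested genes were. The groups separated with BKO higher in 6 of the 19 and with BKO lower in 1, against 9.06% and 6.82% of tested genes. Atf4 itself stood at 68.6, 91.4 and 75.2 FPKM in the BKO libraries, and at 74.2, 63.1 and 79.8 FPKM in the Ctrl libraries, and the groups overlapped. Trib3, a pseudokinase induced by ATF4, stood at 8.88, 9.35 and 3.83 FPKM in the BKO libraries, and at 2.65, 2.70 and 1.85 FPKM in the Ctrl libraries. Its lowest BKO value was in BKO-3, as was that of Mthfd2 (difference 1.23, limma adjusted p = 0.248). Sesn2, a leucine-binding regulator of mTORC1, stood at 11.8, 14.9 and 14.0 FPKM in the BKO libraries, and at 7.86, 7.92 and 8.10 FPKM in the Ctrl libraries. It lay just above the threshold (difference 0.69, limma adjusted p = 0.0568). Ddit4, a stress-induced inhibitor of mTORC1, spread widely, at 19.3, 69.6 and 53.8 FPKM in the BKO libraries, and at 22.7, 13.6 and 35.2 FPKM in the Ctrl libraries. It overlapped between the groups, as did the abundant Cebpb, a transcription factor, at 267 ± 22.5 FPKM in BKO and 213 ± 34.0 FPKM in Ctrl, and Eif4ebp1, a repressor of translation, at 150.3 ± 14.0 FPKM in BKO and 157 ± 10.4 FPKM in Ctrl.

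**Figure D5:**
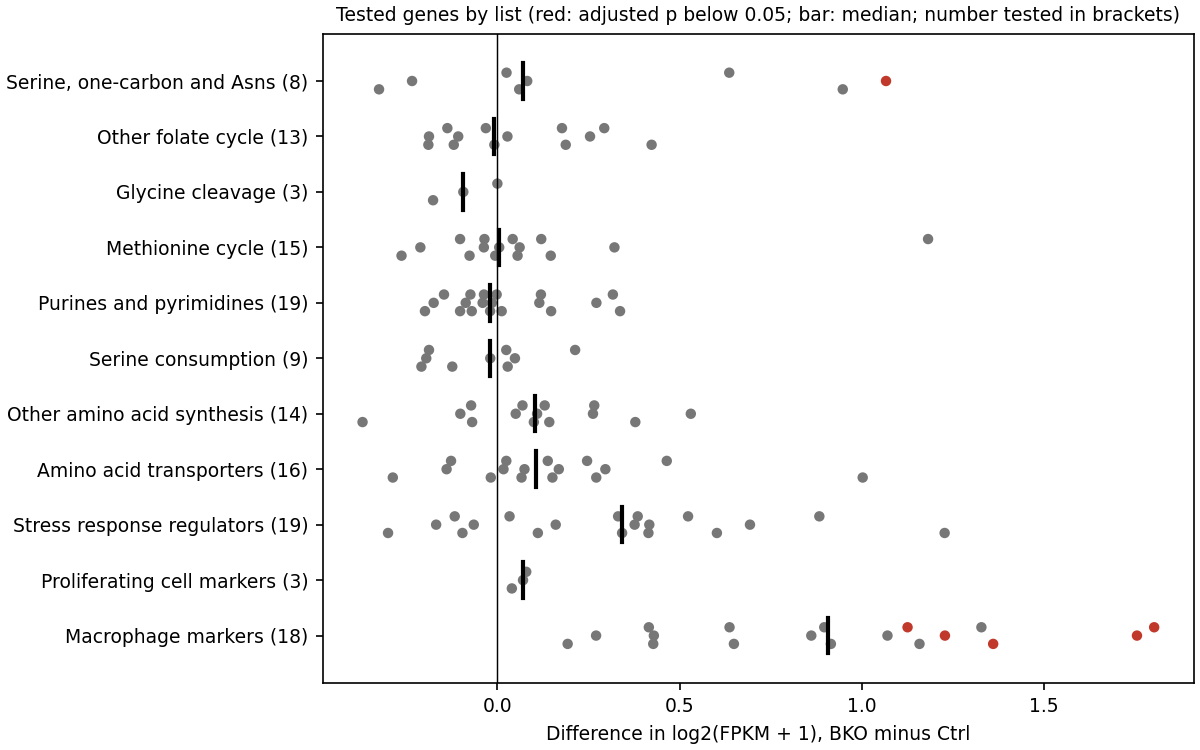
Difference in log2(FPKM + 1), BKO minus Ctrl, of every tested gene by list, 1 point a gene, with the median as a black bar and genes past an adjusted p of 0.05 in red. Outside the macrophage markers, Phgdh is the 1 red point. The medians are 0.07 for the enzymes described here, 0.34 for the stress response regulators and 0.91 for the macrophage markers.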

How the data were processed

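Library making, per the labels, used Trizol extraction and a TruSeq RNA kit. The submitters' processing notes name CASAVA 1.8, TopHat2 2.0.12, Cufflinks 2.2.1 and build NCBIM37. Their options, the annotation and use of strand were not stated there. The deposited table holds FPKM per gene symbol, a unit in which the authors had already allowed for length and depth. Depth itself is unknown, and count models could not be applied.

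Columns were assigned by the names in the labels' descriptions, which call BKO libraries WT and Ctrl libraries MT. Tests used limma 3.58.1 (R 4.3.3) on log2(FPKM + 1) for the 11397 genes whose mean across libraries reached 1 FPKM, with trended variance, no covariate and Benjamini-Hochberg adjustment at 0.05. This scale understates changes of low genes, and folds are ratios of mean FPKM. Ratios within a library had exact permutation tests. The fit was tested on simulated data.

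The members and lists were chosen with earlier results of these data known. The rule for named genes took every member, Bscl2, the genes of each related list that passed, the 3 with the largest difference, the 2 most abundant, and the 3 nearest profiles per member. The metabolic and regulatory lists follow it in full. Of cell type markers and of the profiles nearest to Psph, Shmt1, Shmt2, Mthfd1 and Asns, the text gives fewer. Atf4, Emr1, Lum, Pdgfra, Ptdss1, Ptdss2, the named markers of dividing cells, Aldh18a1, Slc1a4 and Cd163 were chosen after their values were seen. Similar transcripts were found with blastn 2.17.0 in GENCODE vM21, from 90% identity over 200 bases. Alternatives changed the pseudocount, filter, scaling, variance trend, weights, replicate block, covariate and threshold, or left out each library.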

Additional observations from a re-analysis of the deposited data

How the results depend on the processing

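With 18 genes higher and 1 lower over all tested, the counts were 11 higher with no filter on low values, 9 with a mean of at least 5 FPKM, 8 with the muscle score as covariate, 33 at an adjusted p below 0.1 and 48 with library weights, which also gave 6 lower. Leaving out 1 library gave 5 to 41 higher and 1 to 3 lower. The count of enzyme genes called higher, 1, was 0 with no filter, with the covariate and with the 5 FPKM minimum, where Phgdh was no longer tested, and 0 to 2 with 1 library left out, the 2 being Phgdh and Mthfd2 without BKO-3. No enzyme gene was called lower in any of the 17 alternatives (limma). The log2 difference of Phgdh ranged from 0.97 to 1.31 in the 16 alternatives that tested it (adjusted p 0.0134 to 0.219, limma), and its call was lost in 7. The difference of Psph ranged from -0.073 without BKO-1, a reversed sign, to 0.18 without BKO-3, and the other 7 listed enzymes kept their direction in every alternative that tested them; the causes were not tested. The log2 ratio of Mthfd2 to Mthfd1 differed by 1.18 with a pseudocount of 1, and by 1.43 to 2.46 with 1 library left out.

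Deviations of same-numbered libraries from their group means had correlations of 0.196, -0.104 and -0.1. Those of libraries with unlike numbers ran from -0.126 to 0.219, so the numbers were not taken as pairs. With the replicate block, 23 genes were called higher and 2 lower, and 1 enzyme gene, Phgdh, remained higher (adjusted p = 0.0262, limma). Depth is unknown, so its limit for the low genes Psat1 and Mthfd2 cannot be given.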

Other observations

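A few low genes next to these pathways fell under the mean of 1 FPKM and were not tested, and they were picked after their values were seen. Aldh18a1, which makes the precursor of proline, stood at 1.28, 1.88 and 0.900 FPKM in the BKO libraries, and at 0.451, 0.528 and 0.574 FPKM in the Ctrl libraries. Slc1a4, a carrier of serine and other small neutral amino acids, stood at 1.103, 1.030 and 0.965 FPKM in the BKO libraries, and at 0.483, 0.356 and 0.513 FPKM in the Ctrl libraries. The groups overlapped in neither gene. Of tested genes, 9.06% separated with BKO higher, a share that does not cover genes this low. Genes below 0.486 FPKM in BKO-3 may be missing from the listing, so such a separation is only a description. With no filter on low values the adjusted p was 0.259 for Aldh18a1 and 0.178 for Slc1a4 (limma).

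Not all macrophage markers lay higher in BKO. Cd163, a scavenger receptor of resident macrophages, stood at 0.468 ± 0.124 FPKM in BKO and 1.04 ± 0.232 FPKM in Ctrl (SD, n = 3 each), without overlap (adjusted p = 0.261 with no filter, limma).

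Among the BKO libraries, BKO-3 had the lowest value in 6 of the 8 listed enzyme genes and the highest in 2, Shmt1 and Mthfd1. Among the Ctrl libraries, Ctrl-1 had the highest value in 6 of 8.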
